A study of Saccharomyces cerevisiae with 11 samples.

Results

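The 31 genes described here make ergosterol, the main membrane sterol of budding yeast (Saccharomyces cerevisiae), and the isoprenoids that share its precursors. They were chosen by gene symbol in the platform's gene table, 1 probe set per gene, and the probe set with the highest mean signal was used where a gene had several. All 31 had a probe set and all 31 passed the filter on low values, out of 5656 genes named on the array. By step, 9 belong to the mevalonate pathway, 3 make squalene and convert it to lanosterol, and 11 carry out the late sterol steps. Of the others, 2 are electron donors, 2 esterify sterols, 1 is a transcription factor and 3 start the longer prenyl chains.

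Total RNA was measured on 11 Affymetrix YG-S98 arrays to ask how cells respond to glucosamine, an amino sugar that can feed the synthesis of chitin in the cell wall. Wild-type cells of strain BY4741 were given 15 mM glucosamine 2 h before harvest (3 arrays), grew in 15 mM glucosamine overnight and again after dilution (3 arrays, called continuous here), or were untreated (3 arrays). The fks1 mutant strain received 15 mM glucosamine for 2 h (1 array) or was untreated (1 array). FKS1 encodes a glucan synthase, which builds the cell wall. All were harvested in mid-log phase from rich glucose medium (YPD). BY4741 is haploid, of mating type a, and cannot make histidine, leucine, methionine or uracil, and its HAP1 gene, a heme-responsive activator of sterol and respiratory genes, is interrupted by a transposon. Whether replicates were separate cultures is not stated, so p-values measure only the spread between these arrays, which may be technical.

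In the pathway, acetyl-CoA is built into mevalonate, whose formation by the HMG-CoA reductases Hmg1 and Hmg2 is the main control point, and then into farnesyl pyrophosphate. Squalene made from it is oxidised and cyclised to lanosterol, and the late enzymes, several of which need heme, iron and oxygen, convert lanosterol into ergosterol. When sterols run short, as in cells without oxygen or treated with azole drugs, the transcription factors Upc2 and Ecm22 raise many of these genes together. Farnesyl pyrophosphate also feeds ubiquinone, dolichol and the lipid anchors of proteins.

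Signals were taken as the authors deposited them, 1 per probe set and array, and every array had nearly the same 2% trimmed mean, from 500.4 to 500.5. In the check of the mutant label, the brightest FKS1 probe set read 6.6 and 24.4 in fks1 cells, against 6591 to 8257 on the 9 wild-type arrays, and all 8 FKS1 probe sets were lower in both fks1 arrays than on every wild-type array. Arrays of 1 wild-type group differed by up to 16.7-fold in one of these 8, and the part of this spread in the results was not tested. Set against the median signal of each array, 122.7 to 150.0, the 5 a-specific genes checked were above it on all 11 arrays and the 3 alpha-specific genes below it. Because a probe set's brightness depends on its probes, signals are compared between arrays and not between genes, except to say how bright a probe set was. The arrays hold bulk RNA, so fewer transcripts per cell and fewer expressing cells cannot be told apart. The number of arrays limits the precision.

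The signals of most mevalonate and late sterol genes varied within a narrow range across wild-type cells, while most genes of the other steps varied more. These steps also differed in brightness. Mean wild-type signals ran from 452 to 4556 for the mevalonate genes and from 727 to 6581 for the late sterol genes. They ran from 78 to 410 for the prenyl chain genes, but from 503 to 2290 for the squalene and lanosterol genes. How far brightness sets the range of a gene was not tested. The highest of the 9 wild-type arrays exceeded the lowest by a median of 1.52-fold over the 31 genes, beside 1.97-fold over the 8616 probe sets tested and 1.75-fold over the 4904 brighter ones, those above the median signal on at least 3 wild-type arrays. For 15 of 31 genes (48.4%) this ratio was under 1.5, against 17.3% of all probe sets and 26.5% of the brighter ones. By step, these were 6 of 9 mevalonate genes, 8 of 11 late sterol genes and 1 of 2 electron donors. They included 0 of 3 genes of squalene and lanosterol synthesis, 0 of 2 of esterification and 0 of 3 of the prenyl chains. The prenyl chain genes had a median ratio of 1.79, and ECM22, the transcription factor, had 1.69. MVD1, the mevalonate pyrophosphate decarboxylase, varied least, with a ratio of 1.19. The ratio was over 2 for 4 genes, ERG12, COQ1, ARE2 and CYB5. The pooled SD within groups had a median of 0.18 on the log2 scale over the 31 genes, 0.29 over all probe sets and 0.23 over the brighter ones. These shares describe the genes and were not tested. Within groups, continuous array 2 was the highest of its 3 arrays for 17 of 31 genes, and 2 h array 3 the lowest for 16.

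**Figure D1:**
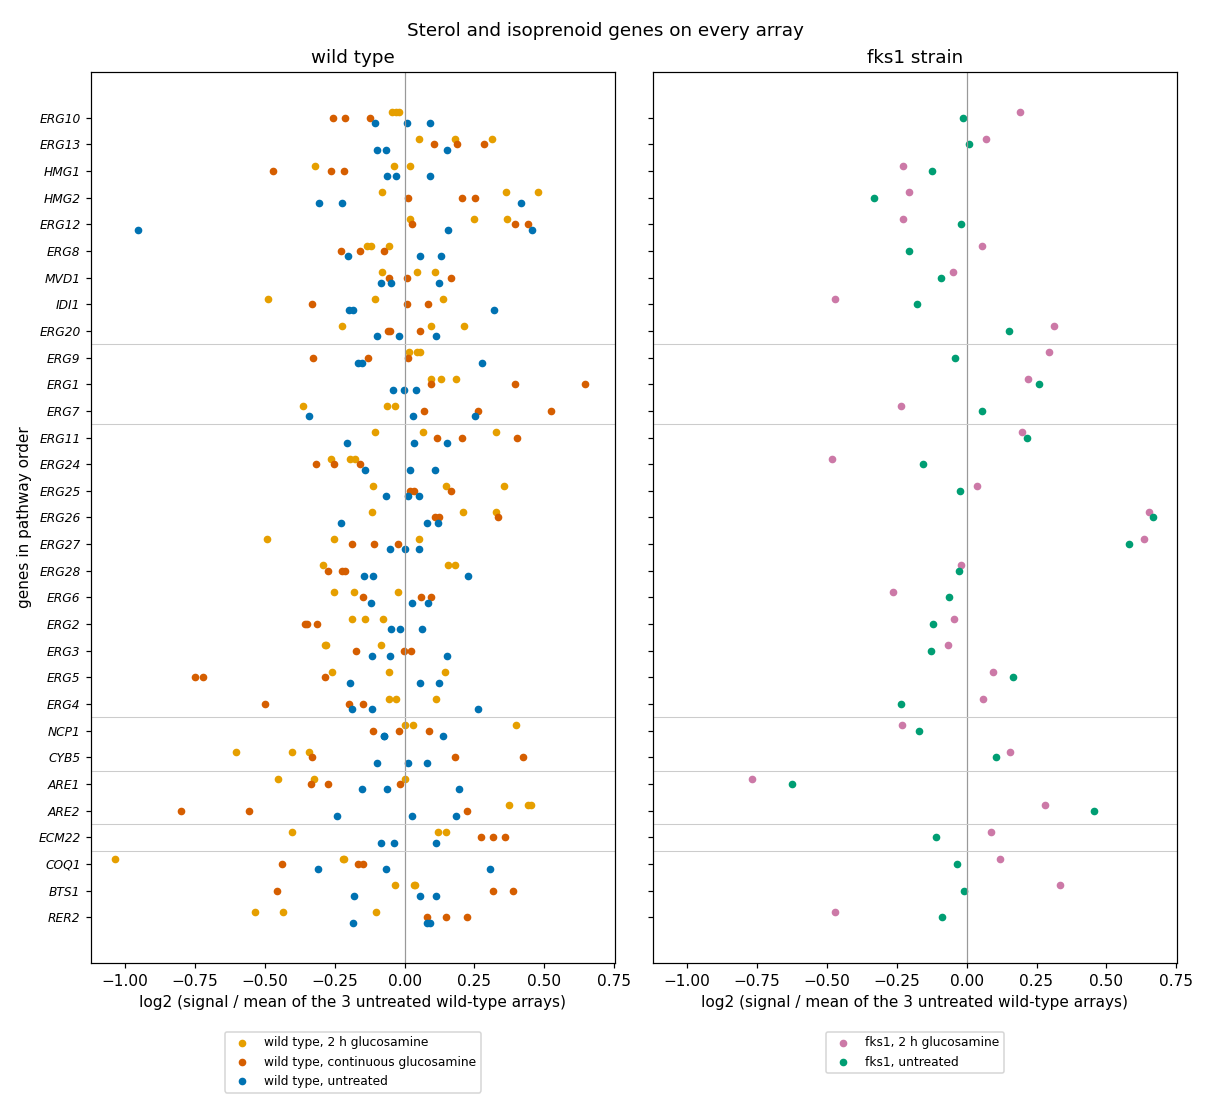
Signal of each gene on each array, as the log2 ratio to its mean in the 3 untreated wild-type arrays (horizontal axis), with genes in pathway order from top to bottom and grey lines between the steps. Points are single arrays, coloured by group; most lie close to 0, and ERG26 and ERG27 stand to the right in both fks1 arrays.

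After 2 h of glucosamine, none of the 31 genes passed the test. Differences were tested with limma on the log2 signal, with Benjamini-Hochberg adjustment over all 8616 probe sets and a threshold of 0.05, and 0 of 31 passed beside 0.0348% of all probe sets. At an unadjusted p under 0.05 there was 1 gene of 31, CYB5, beside 6.06% of all probe sets. The median log2 difference of the genes was -0.03, against -0.02 over all probe sets, with 15 genes positive (46.1% of all probe sets were) and 16 negative. For 28 of 31 genes the 95% interval of the difference lay wholly within 2-fold in either direction, which held for 71.4% of all probe sets and 87.3% of the brighter ones. Within 1.5-fold lay the intervals of 23 of 31 genes, against 29.3% and 46.7%. Untreated and 2 h arrays of the same number deviated together, and with these pairs as a block in a fit of the 6 arrays 0 of 31 genes passed, beside 0.197% of all probe sets. In that paired fit CYB5, RER2 and COQ1 had an unadjusted p under 0.05, 3 of 31 genes beside 12.8% of all probe sets.

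The mevalonate genes ranged from -0.13 for IDI1, the isopentenyl pyrophosphate isomerase, to 0.33 for ERG12, the mevalonate kinase, in log2 difference after 2 h. Over the squalene and lanosterol genes the range was -0.13 for ERG7 to 0.14 for ERG1, and over the late steps -0.23 for ERG27 to 0.15 for ERG26. The median log2 difference was 0.03 over the mevalonate genes and -0.05 over the late steps.

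The lowest values after 2 h were those of COQ1, CYB5 and RER2. CYB5, the cytochrome b5 that donates electrons to sterol and lipid enzymes, read 507, 442 and 529 after 2 h on arrays 1, 2 and 3, against 676, 626 and 708 in untreated cells. All the treated arrays lay below all the untreated ones, but the log2 difference of -0.45 (SE 0.19, limma adjusted p = 0.789) did not pass, nor did it in the paired fit (limma adjusted p = 0.207). RER2, a cis-prenyltransferase that makes the dolichol chain for glycosylation, read 293, 395 and 314 after 2 h and 373, 452 and 448 in untreated cells, lower in all 3 same-numbered pairs though 1 treated array fell within the untreated range (log2 -0.35, SE 0.16, limma adjusted p = 0.819, and 0.350 in the paired fit). COQ1, the hexaprenyl pyrophosphate synthase of ubiquinone synthesis, read 315, 316 and 179 after 2 h, against 351, 454 and 297 without treatment, again lower in all 3 pairs (limma adjusted p = 0.292 in the paired fit). Its difference of -0.47 (SE 0.25, limma adjusted p = 0.857) was -0.20 without the third 2 h array. Agreement of all 3 pairs did not set these genes apart. ERG7, ERG24, ERG6, ERG2, ERG3, CYB5 and ARE1 were also lower in all 3 pairs, and ERG13, ERG1, ERG26, ARE2 and HMG2 higher. The share of all probe sets with such agreement was not computed. RER2 and COQ1 are neighbours in the genome, with the locus names YBR002C and YBR003W. In continuous glucosamine their log2 differences from untreated cells had opposite signs, 0.16 for RER2 and -0.23 for COQ1. Whether their values after 2 h are linked was not tested.

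The highest values after 2 h were those of ARE2, ERG12 and HMG2. ARE2, an acyl-CoA:sterol acyltransferase that stores sterol as ester, read 70.6, 66.9 and 70.1 after 2 h and 58.7, 52.6 and 43.7 in untreated cells. Those groups did not overlap, yet the log2 difference was 0.43 with an interval of -0.19 to 1.06 (limma adjusted p = 0.897). In HMG2, which encodes the reductase isozyme known for its regulated degradation, signals of 1935, 1425 and 2095 after 2 h overlapped those of 1288, 1218 and 2011 in untreated cells (log2 0.29, SE 0.21), and each 2 h array was above the untreated array of its number (limma adjusted p = 0.398 in the paired fit). The groups were apart in 2 genes with higher 2 h values, ERG1 and ARE2, beside 4.77% of all probe sets, and in 3 with lower ones, ERG24, ERG2 and CYB5, beside 6.4%.

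For ERG12, the untreated array 3 set the sign of the difference. Its brightest probe set read 516, 475 and 405 after 2 h and 526, 407 and 543 in continuous glucosamine, against 548, 445 and 207 in untreated cells. Without that untreated array the log2 difference was -0.09 at 2 h and -0.02 in continuous glucosamine, in place of 0.33 and 0.40. The other 3 probe sets of ERG12 ranged from 0.05 to 0.44 at 2 h and from -0.45 to 0.31 in continuous glucosamine. They did not share one direction in continuous cells, and ERG12 is the 1 gene of the 31 with more than 1 probe set.

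**Figure D2:**
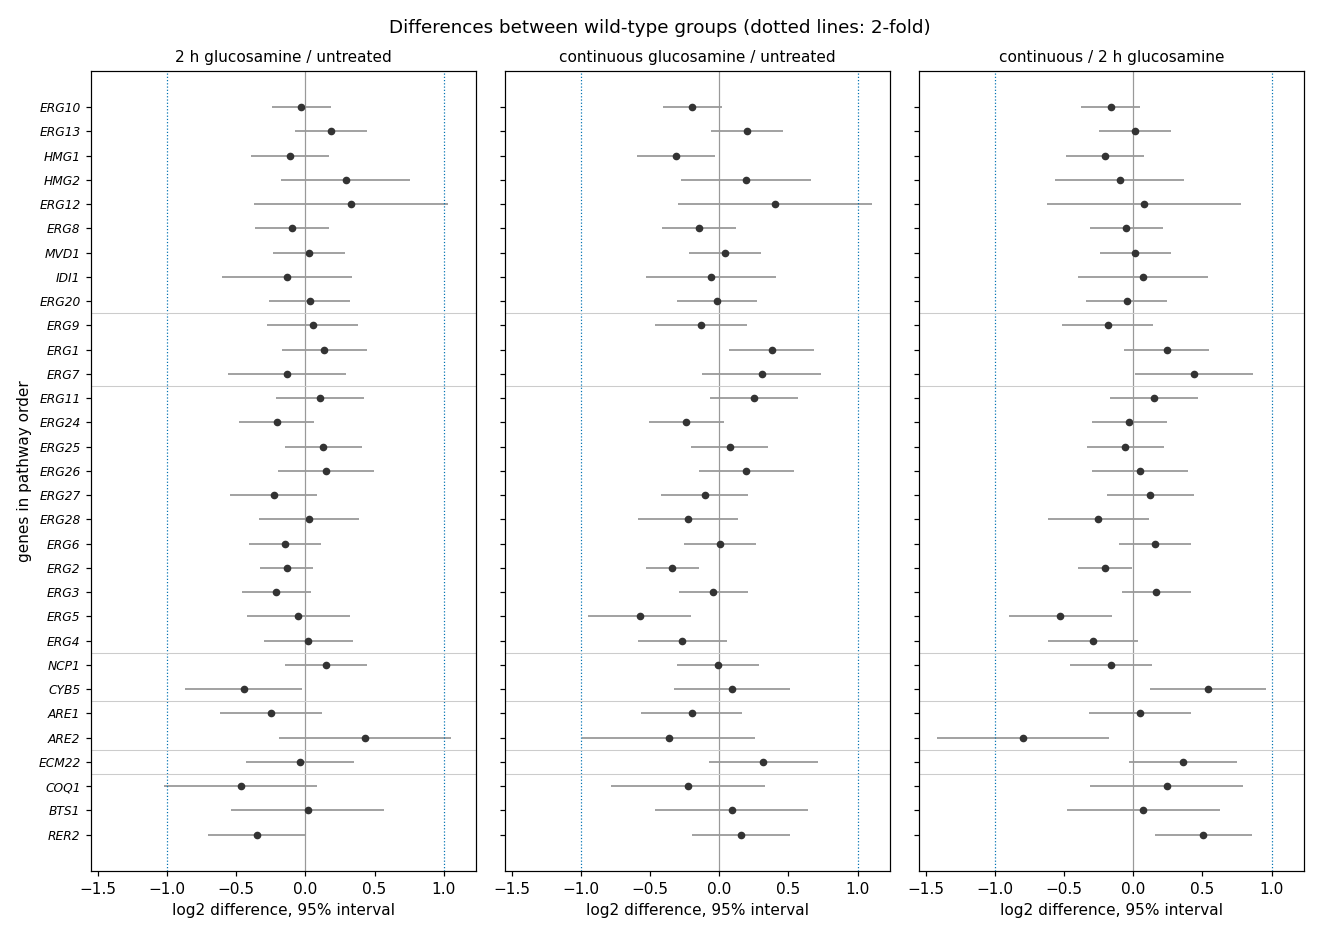
Log2 differences of the 31 genes in the 3 wild-type comparisons (horizontal axis), with 95% intervals from limma as bars and genes in pathway order. Dotted lines mark 2-fold; the intervals of 28, 30 and 30 genes lie wholly between them in the panels from left to right.

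In continuous glucosamine, 0 of 31 genes passed in limma, beside 1.44% of all probe sets, although this was the comparison with the most calls over the array. ERG1 was higher and HMG1, ERG2 and ERG5 were lower at an unadjusted p under 0.05, 4 of 31 genes beside 13.8% of all probe sets. The median log2 difference was -0.02 over the genes and 0.02 over all probe sets, and 14 genes were positive (52.4% of all probe sets were) and 17 negative. The interval lay within 2-fold for 30 of 31 genes, against 65.5% of all probe sets and 78.5% of the brighter ones, and within 1.5-fold for 19 of 31, against 24.8% and 39.1%. This comparison uses the same untreated arrays as the 2 h one.

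The lowest values in continuous cells were those of the late sterol genes ERG5 and ERG2 and of the sterol acyltransferase gene ARE2. ERG5, the C-22 sterol desaturase and a cytochrome P450, read 836, 1132 and 821 in continuous glucosamine, against 1501, 1432 and 1204 in untreated cells. Every continuous array lay below every untreated array, and the log2 difference of -0.58 (SE 0.17, interval -0.95 to -0.20, limma adjusted p = 0.127) was the most negative of the 31. In ERG2, the C-8 sterol isomerase, the signals were 5584, 5729 and 5554 in continuous cells, against 6887, 7041 and 7423 in untreated ones. These 2 tight groups gave the smallest adjusted p of the genes in any wild-type comparison (log2 -0.34, SE 0.09, limma adjusted p = 0.0873), with 5623 ± 94 in continuous cells and 7117 ± 276 in untreated cells (SD, n = 3 each). ARE2, the second lowest at -0.37 (SE 0.28, limma adjusted p = 0.640), read 35.1, 29.7 and 60.3 in continuous cells, and the third value exceeded all the untreated ones. After 2 h ERG2 read 6755, 6455 and 6240.5, which lay between the continuous and the untreated arrays. Over the late steps 4 genes were positive and 7 negative, with a median log2 difference of -0.11. ERG11, the lanosterol demethylase that azole drugs inhibit, was the highest of them at 0.25 (SE 0.14, limma adjusted p = 0.504).

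The values of the 2 reductase genes in continuous cells had opposite signs, but neither gene passed, and a contrast between them was not tested. HMG1, which encodes the main HMG-CoA reductase of cells grown with oxygen, read 1898, 2263 and 2190.2 in continuous glucosamine and 2663, 2557 and 2106 after 2 h, against 2515, 2796 and 2571 in untreated cells. All continuous arrays lay below all untreated ones (log2 -0.31, SE 0.13, limma adjusted p = 0.283). HMG2 read 1790.3, 1518 and 1734 in continuous cells, within the untreated range, for a log2 difference of 0.19 (SE 0.21, limma adjusted p = 0.771).

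Among the genes with higher values in continuous cells were ERG1 and ECM22. ERG1, the squalene epoxidase, read 2646, 3146 and 2149 in continuous glucosamine and 2151, 2202 and 2284 after 2 h, against 2071, 1956 and 2010.2 in untreated cells. Each of the 6 treated arrays was above all 3 untreated arrays, and the continuous cells gave a log2 difference of 0.38 (SE 0.14, interval 0.07 to 0.69, limma adjusted p = 0.230). The sterol transcription factor gene ECM22 read 322, 331 and 341 in continuous cells, against 251, 259.6 and 288 in untreated cells, also without overlap (log2 0.32, SE 0.18, limma adjusted p = 0.482). In all, 2 genes had higher and 6 had lower continuous arrays without overlap, the 6 being ERG10, HMG1, ERG24, ERG28, ERG2 and ERG5. All probe sets gave 10.6% higher and 9.61% lower by the same rule.

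**Figure D3:**
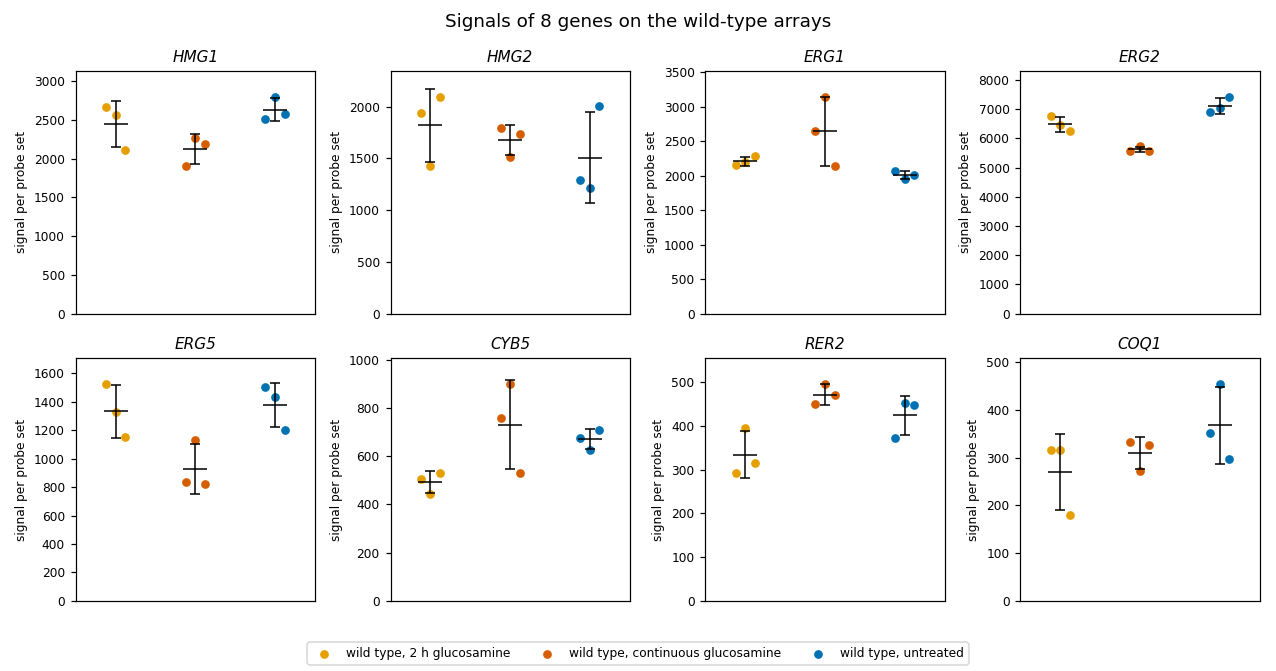
Signals of 8 genes on the wild-type arrays (vertical axes from 0, in the deposited signal units), with points for single arrays and black marks for mean ± SD over 3 arrays. The continuous arrays of HMG1, ERG2 and ERG5 lie below the untreated ones, and the 2 h arrays of CYB5 lie below both the other groups.

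Continuous and 2 h glucosamine were set against each other directly, and 0 of 31 genes passed in limma, beside 0.058% of all probe sets. At an unadjusted p under 0.05 there were 6 genes of 31 beside 14% of all probe sets: ERG7, CYB5 and RER2 were higher and ERG2, ERG5 and ARE2 lower in continuous cells. CYB5 read 759, 899 and 533 in continuous cells and 507, 442 and 529 after 2 h, so that the lowest continuous array was only just above the highest 2 h array (log2 0.54, SE 0.19, limma adjusted p = 0.272). RER2 read 449, 495 and 469.7 in continuous cells, all above the 2 h arrays (log2 0.51, SE 0.16, limma adjusted p = 0.244). ERG7, the lanosterol synthase, read 578, 692 and 505 in continuous cells, against 374, 461 and 470.0 after 2 h (log2 0.44, SE 0.19, limma adjusted p = 0.346).

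The lowest value of the direct comparison was that of ARE2, at -0.80 (SE 0.28, interval -1.42 to -0.17, limma adjusted p = 0.272), followed by ERG5 at -0.53 (SE 0.17, limma adjusted p = 0.254). The ARE2 probe set is dim, with signals below the median of every array. Over the 16 alternative settings run for it, this ARE2 value ranged from -1.10 to -0.48. ERG5 read 1524, 1326 and 1152 after 2 h, all above the 3 continuous arrays given before. ERG4, the C-24 sterol reductase of the last step, read 3084, 3794 and 3928 in continuous cells, against 4263, 4705 and 4193 after 2 h and 3820.3, 5231 and 4019.8 in untreated cells. Its continuous arrays were below the 2 h arrays, with a log2 difference of -0.29 (SE 0.15, limma adjusted p = 0.407). Without overlap, 4 genes were higher (beside 11.6% of all probe sets) and 6 lower (beside 7.31%). The difference was positive for 17 genes, beside 55.7% of all probe sets. The 95% interval stayed within 2-fold for 30 of 31 genes, against 64.9% of all probe sets and 79.8% of the brighter ones, and within 1.5-fold for 20 of 31, against 24.1% and 38.6%.

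The fks1 strain was compared with wild-type cells in the same condition, with the caveat that each fks1 value is 1 array. The limma fit of all 11 arrays assumes that these single arrays vary like the wild-type groups. In it, 0 of 31 genes passed after 2 h of glucosamine, beside 0.429% of all probe sets, and 0 of 31 in untreated cells, beside 0.592%. At an unadjusted p under 0.05 there were 3 genes at 2 h (beside 12.1% of all probe sets), ERG26, ERG27 and CYB5, and 3 in untreated cells (beside 12.3%), ERG26, ERG27 and ARE1. No gene was at least 2-fold from each of the 3 wild-type arrays, while 2.5% of all probe sets were that much higher and 0.615% that much lower at 2 h, and 2.59% and 0.499% in untreated cells. The median log2 difference of the genes was 0.05 at 2 h and -0.02 in untreated cells, against 0.08 and 0.12 over all probe sets. At 2 h 16 genes were positive, beside 57.3% of all probe sets, and in untreated cells 11 were, beside 60%. The 95% interval stayed within 2-fold for 22 genes at 2 h (39.5% of all probe sets, 58% of the brighter ones) and for 26 in untreated cells (39.8% and 58.4%). Within 1.5-fold it stayed for 13 genes at 2 h (8.23% and 14.4%) and 14 in untreated cells (7.21% and 12.6%). Scaling the arrays to a common median turned the medians of all probe sets to -0.04 and -0.08, and those of the genes to -0.08 and -0.23.

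Both fks1 arrays lay outside all 9 wild-type arrays in 4 genes, chosen for description after their values were seen. ERG26 and ERG27, 2 of 31 genes, were above them, beside 11.7% of all probe sets. NCP1 and ARE1, also 2 of 31, were below them, beside 4.41%. These counts are below or near the shares over all probe sets and do not set the 31 genes apart. ERG27, the 3-keto sterol reductase of C-4 demethylation, read 2911 in fks1 cells after 2 h and 2806 in untreated fks1 cells. The wild-type signals were 1943, 1575 and 1332 after 2 h, 1844, 1644 and 1736.5 in continuous glucosamine, and 1940.5, 1808 and 1875 in untreated cells. The lower fks1 array was 1.44 times the highest wild-type one, and the log2 differences were 0.87 at 2 h (SE 0.20, interval 0.42 to 1.31, limma adjusted p = 0.117) and 0.58 in untreated cells (SE 0.20, limma adjusted p = 0.260).

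ERG26, the C-3 sterol dehydrogenase of the same demethylation complex, read 1621 after 2 h and 1635 in untreated fks1 cells. Its wild-type arrays ran from 949.6 to 1292 after 2 h and from 880.5 to 1121 in untreated cells, and the lower fks1 array was 1.25 times the highest wild-type one. The log2 differences were 0.51 at 2 h (SE 0.22, limma adjusted p = 0.385) and 0.67 in untreated cells (SE 0.22, limma adjusted p = 0.237). The complex also contains the methyl oxidase Erg25 and the scaffold protein Erg28. ERG25 read 6065 and 5817 in 2 h and untreated fks1 cells and ERG28 856.5 and 852, both within the range of the 9 wild-type arrays. In untreated cells their log2 differences were -0.02 for ERG25 (interval -0.41 to 0.37) and -0.02 for ERG28 (interval -0.53 to 0.50).

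ARE1, the acyltransferase gene that is paired with ARE2, read 445.5 in fks1 cells after 2 h and 492 in untreated fks1 cells. The wild-type arrays read 607, 759.7 and 555 after 2 h and 683, 867 and 725.5 without treatment, so the higher fks1 array was 0.886 of the lowest wild-type one. Its log2 differences were -0.51 at 2 h (SE 0.23, limma adjusted p = 0.427) and -0.62 in untreated cells (SE 0.23, limma adjusted p = 0.307). NCP1, the reductase that passes electrons to the cytochrome P450 enzymes Erg11 and Erg5, read 2493 and 2599 in 2 h and untreated fks1 cells. The lowest of the 9 wild-type arrays read 2703. The log2 differences of NCP1 were small, -0.37 at 2 h and -0.17 in untreated cells. For ERG26, ERG27, ARE1 and NCP1 the sign held under all 17 alternative settings run for these comparisons. This is no separate support, because the genes were picked for fks1 arrays outside all wild-type arrays. Leaving out a wild-type array could therefore not turn the sign.

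**Figure D4:**
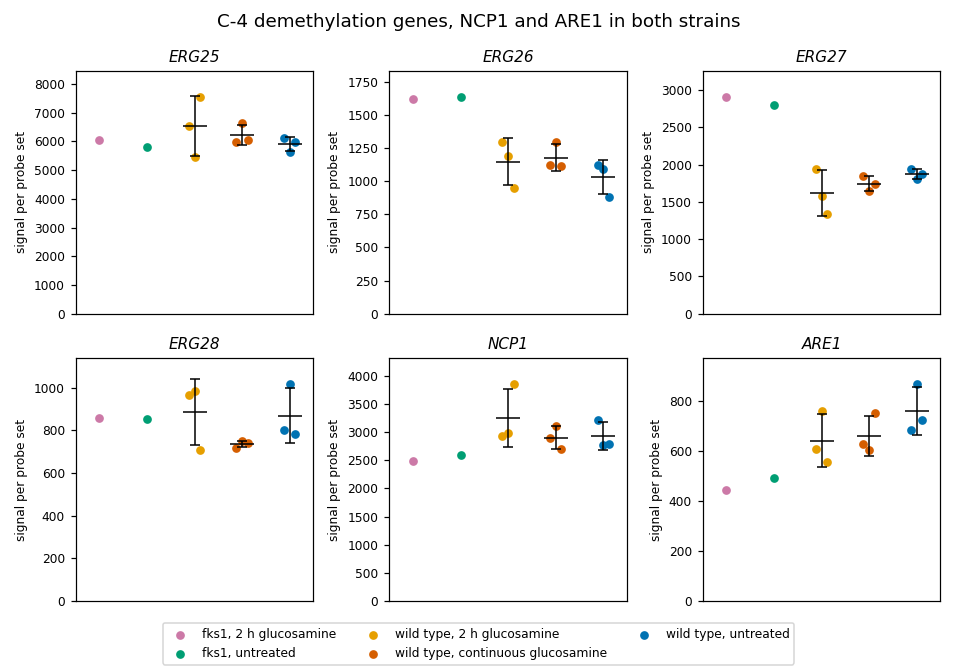
Signals of the 4 genes of the C-4 demethylation complex, NCP1 and ARE1 (vertical axes from 0, in the deposited signal units), with single arrays as points and mean ± SD over 3 arrays for the wild-type groups. ERG26 and ERG27 are above every wild-type array in both fks1 arrays, ARE1 and NCP1 are below, and ERG25 and ERG28 are among them.

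The 2 h response of fks1 cells was set against that of wild-type cells as an interaction. In limma 0 of 31 genes passed, beside 0.0116% of all probe sets, and 0 of 31 had an unadjusted p under 0.05, beside 2.33%. The values ran from -0.61 for ARE2 to 0.62 for COQ1 on the log2 scale, and the interval for COQ1, -0.49 to 1.73, shows how wide the estimates with single fks1 arrays are.

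Of 59 other listed genes 58 were tested, 50 of sterol and prenyl metabolism and 8 that report on heme and oxygen. After 2 h, 0 of 58 passed in limma, beside 0.0348% of all probe sets, and 3 had an unadjusted p under 0.05, beside 6.06%. In continuous glucosamine 1 of the 50 and 3 of the 8 passed, beside 1.44% of all probe sets, and 18 of the 50 and 4 of the 8 had an unadjusted p under 0.05, beside 13.8%. The log2 differences of the 50 ran from -1.21 for PRY1, a secreted sterol-binding protein gene, to 0.99 for SRT1, a cis-prenyltransferase gene. Signals of SRT1 were dim, below the median of every array. AAC3 and ANB1, the ADP/ATP carrier and translation factor genes of cells short of oxygen, rose by 1.24 (SE 0.21, limma adjusted p = 0.0272) and 1.39 (SE 0.27, limma adjusted p = 0.0421) on the log2 scale. CYC1, the cytochrome c gene of respiring cells, fell by 1.69 (SE 0.33, limma adjusted p = 0.0421), and OSH2, an oxysterol-binding protein gene, fell by 0.73 (SE 0.15, limma adjusted p = 0.0486). Other genes of the heme and oxygen list went the other way from AAC3 and ANB1, and they are named after their values were seen. COX5B, the cytochrome oxidase subunit gene of cells short of oxygen, read 164, 145 and 211 in continuous cells, against 341, 429.7 and 268 in untreated cells (log2 -0.99, SE 0.26, limma adjusted p = 0.0990). CYC7, a second cytochrome c gene, measured -0.83 (SE 0.59, limma adjusted p = 0.613), but its arrays did not share this direction. It read 20, 17.2 and 98.9 in continuous cells, against 71.9, 69.6 and 37.9 in untreated cells, so the third continuous array exceeded all the untreated ones. The 4 calls held under 10 (AAC3), 6 (ANB1), 7 (CYC1) and 4 (OSH2) of 19 alternative settings. AAC3 also passed against 2 h glucosamine (log2 1.57, SE 0.21, limma adjusted p = 0.0331), the 1 of 58 that did, beside 0.058% of all probe sets, under 5 of 17 settings. In untreated fks1 cells PRY2, a relative of PRY1, rose by 1.13 (SE 0.21, limma adjusted p = 0.0498), a call kept under 7 of 17 settings.

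By the probe set used for each gene, 0 of the 10 sterol regulators and 0 of the 6 enzyme partners passed in any wild-type comparison in limma, although 4 and 2 of them had an unadjusted p under 0.05 in continuous cells. UPC2, the partner of ECM22, had the highest value of the regulators by these probe sets in continuous cells and NSG2, a stabiliser of Hmg2, the lowest (log2 -0.51, SE 0.21, limma adjusted p = 0.303). UPC2 read 95.5, 82.4 and 78.1 in continuous glucosamine and 41.0, 33.5 and 55.5 after 2 h, against 53.7, 43.6 and 38.7 in untreated cells. The continuous arrays were above all the others (log2 0.92, SE 0.25, interval 0.37 to 1.48, limma adjusted p = 0.101). The UPC2 probe set is dim, with signals below the median of every array. HAP1 has 3 probe sets, and they disagreed in size. The 2 that can bind related transcripts measured 0.76 (SE 0.19, limma adjusted p = 0.0810) and 1.06 (SE 0.22, limma adjusted p = 0.0482), so that the dimmer of them passed, and the remaining one measured 0.27 (SE 0.13, limma adjusted p = 0.399). HEM13, the oxygen-dependent coproporphyrinogen oxidase of heme synthesis, was highest of the 6 enzyme partners at 0.90 (SE 0.30, limma adjusted p = 0.191). Beside these values, the 11 late sterol genes stayed between -0.58 and 0.25 and the 9 mevalonate genes between -0.31 and 0.40 on the log2 scale in continuous cells. Those differences between the lists were not tested.

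**Figure D5:**
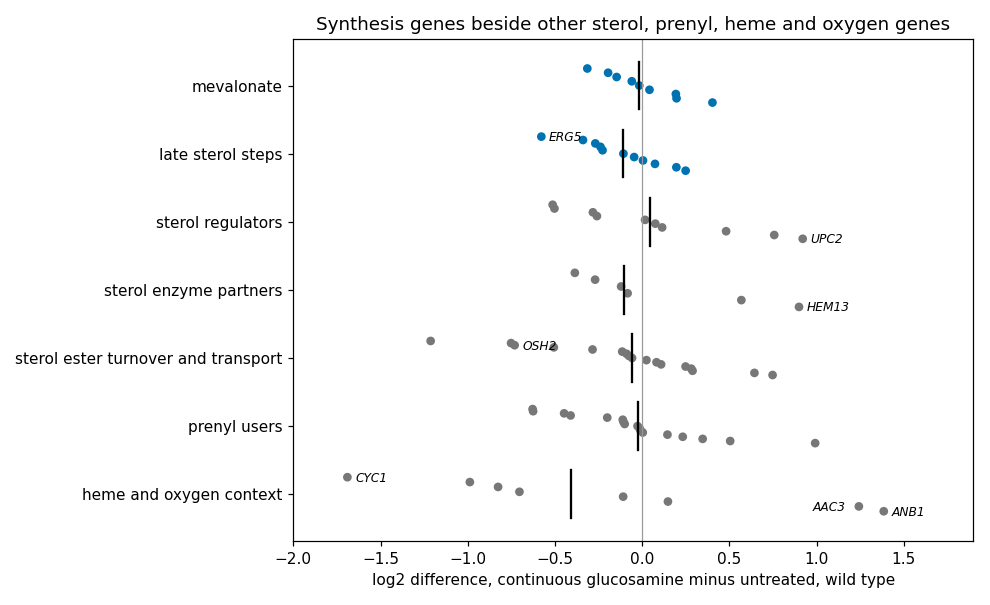
Log2 difference of each gene between continuous glucosamine and untreated wild-type cells (horizontal axis), by list, with a black bar at each list's median. The mevalonate and late sterol genes (blue) stay within -0.58 and 0.40, while the heme and oxygen list runs from -1.69 for CYC1 to 1.39 for ANB1.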

How the data were processed

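Per the labels' protocols, the authors hybridised biotin-labelled cRNA to YG-S98 arrays and analysed and normalised them with GeneChip Analysis Suite. The sources used here give neither its version nor its settings. The deposited values are intensity signals per probe set. A common trimmed mean on every array removes differences in total RNA. Signals under 7.7, the 10th percentile, were set to 7.7 and log2 was taken. Without the 60 control probe sets, 8616 of 9335 were tested, being above that floor on at least 3 of 9 wild-type arrays. limma 3.58.1 (R 4.3.3) was fitted with a variance trend and two-sided tests, to the 9 wild-type arrays or, for fks1, to all 11. The code was tried on simulated wild-type groups with shifts of 1 and 2 on the log2 scale. That trial does not cover smaller differences or the single fks1 arrays. Probe sets above 131.8, the median of all values, on at least 3 wild-type arrays are called brighter. Of the probe sets, 6504 had 1 gene symbol in the platform table, and all of these matched the RefSeq gene table of assembly R64. Values of every array are given for the 3 highest and 3 lowest genes of each wild-type comparison and for HMG1 and HMG2. Other pathway genes are named where they passed or were the extreme of their list, with exceptions stated. Promoter motifs were not analysed here. The members and lists were chosen with earlier results of these data known. Replicate numbers pair the untreated and 2 h arrays, since same-numbered arrays deviated together (r = 0.356, 0.570 and 0.517), but not the continuous ones (r from -0.236 to -0.006). Alternatives covered the floor, an offset, scaling, filters, the trend, the replicate block, the probe set choice and leaving out each wild-type array. The fks1 arrays, 1 per condition, were never left out.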

Additional observations from a re-analysis of the deposited data

How the results depend on the processing

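The count of genes past the limma threshold stayed 0 in all 6 comparisons under every alternative run for them. There were 19 alternatives for each of the comparisons with untreated wild-type cells within that strain and 17 for each of the other 4. ARE2 and BTS1 were too dim for the filter at the median and were not tested under that setting. The smallest adjusted p of any gene over the settings was 0.0519 for ERG2 in continuous against untreated cells and 0.0578 for ERG27 in fks1 against wild-type cells at 2 h. ERG12 turned its direction without untreated replicate 3, at -0.092 for 2 h and -0.016 for continuous glucosamine, and leaving out other single arrays took these up to 0.611 and 0.688, without untreated replicate 1. With the replicate block on the paired 2 h and untreated arrays, 0 of 31 genes passed, with a smallest adjusted p of 0.207 for CYB5, while calls over all probe sets numbered 17, against 0 in the same 6 arrays without the block (463 at an unadjusted p under 0.05) and 3 in the fit of 9 arrays. With the replicate block over all 9 wild-type arrays, 0 probe sets were called after 2 h (582 at an unadjusted p under 0.05) and 50 in continuous cells, against 124 without it. Leaving out 1 wild-type array gave from 2 to 182 calls over all probe sets in the continuous comparison, the 2 without untreated replicate 2. Over all settings the medians of the 31 genes, the mevalonate genes and the late sterol genes ran from -0.17 to 0.08 in the wild-type comparisons and from -0.30 to 0.13 in those with fks1, on the log2 scale, and 39 of 336 such values moved by more than the spread between replicates, 18 of them under median scaling. With 3 arrays a group and 1 fks1 array a condition, small differences were not detectable.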
